A study of Mus musculus with 12 samples.

Results

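Cluster 19 is a group of nuclei from the embryonic mouse cortex that the authors named Unknown and kept apart from their projection neurons (PN, marked by *Neurod2*) and interneurons (Int, marked by *Gad2*). All nuclei that the authors placed in this cluster were taken, which gave 662 of 50550 nuclei (1.31%). They came from 11 embryos, with 436 of 30349 nuclei from saline embryos and 226 of 20201 from EtOH embryos. The study injected pregnant C57BL/6J dams intraperitoneally once daily, 6 times in all, with saline or with 2.5 g/kg ethanol as a 25% (v/v) solution in saline, and collected cortices at embryonic day 14. Embryos are named by dam and number, so that S1-1, S1-2, S2-1, S2-2 and S2-4 are the 5 saline embryos, and E1-1, E1-2, E2-1, E2-2, E2-3 and E2-4 the 6 EtOH embryos. The first dam of each treatment belonged to batch 1 and the other to batch 2, and each embryo was 1 library of single nucleus RNA sequencing (snRNAseq), which counts RNA molecules by unique molecular identifiers (UMIs). With 2 dams per treatment, the tests take littermates as independent, except where counts were summed per dam or the dam was a random block.

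As background, neurons that enter the developing cortex are usually sorted by transmitter. Glutamatergic neurons load their vesicles with the transporters encoded by *Slc17a6* and *Slc17a7*, and GABAergic neurons make their transmitter with the enzymes encoded by *Gad1* and *Gad2*. PN of the pallium, the roof of the telencephalon that forms the cortex, depend on NEUROD and nuclear factor I proteins, while GABAergic neurons of the subpallium depend on DLX proteins. Homeodomain proteins of the MEIS, PBX, LHX and BARHL families give neurons of many brain regions their regional identity.

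The 3 neuronal markers given for the cluster lay above their levels in radial glia, while *Dcx* and *Map2* were under those of every Int cluster. *Dcx*, which encodes a microtubule protein of young neurons, was at 421 ± 34.3 CPM (CPM, a gene's counts per 1000000 UMIs of that embryo's Cluster 19 nuclei, SD, n = 11 embryos), against 97.7 to 216 CPM in the 5 radial glial cell (RGC) clusters. It lay under both clusters of intermediate progenitor cells (IPCs, 424 and 629 CPM), within the PN range (216 to 751 CPM) and under every Int cluster (457 to 816 CPM). *Map2*, which encodes a dendritic microtubule protein, was at 1605 ± 178 CPM (SD, n = 11), above the RGC clusters (802 to 1283 CPM), within the IPC range (1368 to 1899 CPM) and under the lowest PN (1615 CPM) and Int (1827 CPM) clusters. *Snhg11*, a neuronal noncoding transcript, was at 1172 ± 311 CPM (SD, n = 11), the second highest of the 25 clusters after Int Cluster 7 (1198 CPM). Between 15 and 114 nuclei per embryo were found, with 90266 to 1307114 UMIs in all and a median of 5957 to 13211.5 UMIs per nucleus. The median was 1.23 to 1.52 times that of all nuclei of the same embryo. EtOH embryo E1-1 had the fewest members (15) and its values carry the largest counting error. Of the 662 barcodes, 7 also occurred in another library, and 0 were shared by Cluster 19 nuclei of different libraries.

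Levels are compared between clusters without a test, since the clusters were made from the same genes. For each gene the mean CPM over embryos was taken in each cluster. Of 6221 genes with at least 20 CPM in Cluster 19, 235 were highest there and 15 had at least 2 times the level of the next cluster. The 25 genes with the highest ratio to the next cluster are the leading genes described here. The last of them, *Rims4*, had a ratio of 1.603, and the first gene left out, *2900055J20Rik*, had 1.596.

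**Figure D1:**
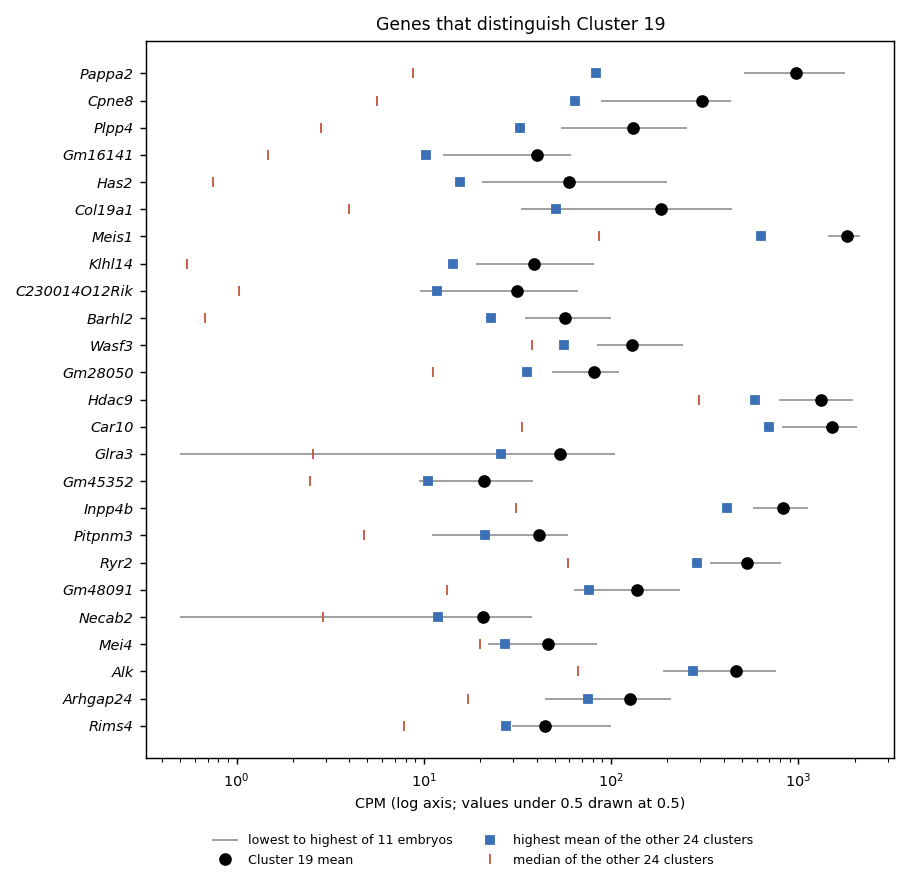
Level in CPM (log axis) of the 25 genes with the highest ratio of the Cluster 19 mean (black) to the highest mean among the other 24 clusters (blue squares), with the range over 11 embryos in grey and the median of the other clusters in red. *Pappa2* is set farthest apart from the next cluster, by 11.7 times, and *Meis1* has the narrowest range of the 25 relative to its mean.

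*Pappa2* led the list. It encodes a secreted metalloprotease that cleaves IGF binding proteins and so frees insulin-like growth factors, and lies on chromosome 1 of GRCm38 from 158711727 to 158980490 on the minus strand. In saline embryos S1-1, S1-2, S2-1, S2-2 and S2-4 it was at 789, 871, 1126, 1084 and 1125 CPM. In EtOH embryos E1-1, E1-2, E2-1, E2-2, E2-3 and E2-4 it was at 1773, 805, 516, 829, 1008 and 813 CPM. The groups overlapped, and every embryo lay far above the next cluster, PN Cluster 16, with a mean of 83.6 CPM. Of the 15 genes of the IGF axis, *Pappa2* was the 1 with its highest level in Cluster 19. The related protease gene *Pappa* ranked 5 of 25 clusters (43.0 ± 22.8 CPM, SD, n = 11), while the receptor gene *Igf1r* (437 ± 84.9 CPM, SD, n = 11) ranked second lowest and *Igfbp4* (4.07 ± 3.34 CPM, SD, n = 11) likewise.

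Of the 25 leading genes, *Meis1* and *Barhl2* encode homeodomain proteins, and other genes of the TALE and LIM families are given beside them. *Meis1* (chromosome 11, 18879817 to 19018985, minus strand) encodes a TALE homeodomain protein that binds DNA with PBX partners. It was at 1614, 1587, 2086, 2148 and 1910 CPM in the saline embryos and at 1905, 1434, 1741, 1616, 1988 and 2016 CPM in the EtOH embryos, in the order given for *Pappa2*. All embryos lay above the next cluster mean, 636 CPM in Int Cluster 13. *Pbx3*, which encodes such a partner, was highest in Cluster 19 (5366 ± 810 CPM, SD, n = 11), with Int Cluster 18 next (4444 CPM). After thinning to 2000 UMIs per nucleus, 523 of 662 nuclei had UMIs of both genes. *Lhx9* is a LIM homeodomain gene (chromosome 1, 138825186 to 138848577) and had 139 ± 29.5 CPM (SD, n = 11), with the authors' Layer I Cluster 14 next (107 CPM). *Barhl2*, a homeodomain gene of the BARHL family (chromosome 5, 106452523 to 106458166), had 57.0 ± 17.7 CPM (SD, n = 11) against 22.9 CPM in PN Cluster 24. *Lhx2* ranked eighth (144 ± 31.4 CPM, SD, n = 11). *Tshz1*, a teashirt zinc finger gene, ranked second (319 ± 85.1 CPM, SD, n = 11), and for 3 of the 14 TALE and teashirt genes Cluster 19 was among the 3 highest clusters and for 2 among the 3 lowest.

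Several noncoding genes of the list lay beside these homeodomain genes. *Gm16141* (40.1 ± 18.6 CPM, SD, n = 11, 3.91 times the next cluster) is annotated within *Meis1* on the other strand, from 19013817 to 19015154. *C230014O12Rik* (chromosome 2, 34018289 to 34107735; 31.3 ± 14.8 CPM, SD, n = 11) ends before *Pbx3* (34171457 to 34373142), and *Gm28050* (chromosome 5, 106500894 to 106574718; 81.0 ± 20.2 CPM, SD, n = 11) neighbours *Barhl2*. *Gm48091* (138 ± 51.4 CPM, SD, n = 11) is annotated antisense to *Opcml*, an adhesion gene that was itself highest in Cluster 19 (4612 CPM, against 3975 CPM in PN Cluster 4). In all, 15 of the 25 genes overlap a gene on the other strand. The methods name Cell Ranger's default parameters, under which reads are assigned by strand, but give no setting for strand, so values of such pairs are less certain.

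The other 18 genes of the 25 are of varied function. *Cpne8* (copine 8, a calcium-dependent membrane-binding protein) was at 305 ± 102 CPM (SD, n = 11), 4.77 times the next cluster. *Has2*, which encodes a hyaluronan synthase, was at 59.8 ± 50.7 CPM (SD, n = 11), and *Col19a1*, a collagen gene, at 186 ± 114 CPM (SD, n = 11). Both varied widely, with *Has2* between 20.4 and 199 CPM and *Col19a1* between 33.2 and 445 CPM over the embryos. *Hdac9*, a class IIa histone deacetylase gene (1321 ± 437 CPM), *Car10*, which encodes a neurexin-binding carbonic anhydrase-related protein (1511 ± 346 CPM), *Inpp4b*, a phosphoinositide phosphatase gene (830 ± 182 CPM), *Ryr2*, a calcium release channel gene (529 ± 115 CPM) and *Alk*, a receptor tyrosine kinase gene (463 ± 153 CPM) were the other members over 400 CPM (SD, n = 11 for each). The remaining 10 were *Gm45352*, a noncoding gene annotated antisense to *Sorcs1*, and the coding genes *Plpp4*, *Klhl14*, *Wasf3*, *Glra3*, *Pitpnm3*, *Necab2*, *Mei4*, *Arhgap24* and *Rims4*, with means between 20.8 CPM (*Necab2*) and 131 CPM (*Plpp4*). *Glra3*, which encodes a glycine receptor subunit, and *Necab2* had no UMI in 1 embryo or more.

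Promoters are shown for the gene that set the cluster apart most (*Pappa2*), for a homeodomain gene highest in it (*Lhx9*) and for its transmitter gene (*Slc17a6*). Each is RefSeq sequence of GRCm38.p6, 300 bases from 250 before to 50 after an annotated start, read 5′ to 3′ on the gene's strand, at chr1:158958126-158958425 (minus), chr1:138842395-138842694 (minus) and chr7:51621580-51621879 (plus). Capitals mark TGACAG, the core that MEIS proteins bind, on either strand.
Pappa2: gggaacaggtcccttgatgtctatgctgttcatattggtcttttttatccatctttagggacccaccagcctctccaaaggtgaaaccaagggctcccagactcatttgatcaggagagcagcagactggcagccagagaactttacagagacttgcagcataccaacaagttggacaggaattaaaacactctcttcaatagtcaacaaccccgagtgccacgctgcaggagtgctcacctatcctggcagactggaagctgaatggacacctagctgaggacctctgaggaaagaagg
Lhx9: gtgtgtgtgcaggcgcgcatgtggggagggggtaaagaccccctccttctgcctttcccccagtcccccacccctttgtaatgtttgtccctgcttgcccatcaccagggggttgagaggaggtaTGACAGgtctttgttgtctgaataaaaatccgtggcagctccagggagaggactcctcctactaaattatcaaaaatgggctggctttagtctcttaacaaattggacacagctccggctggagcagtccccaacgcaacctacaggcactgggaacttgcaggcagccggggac
Slc17a6: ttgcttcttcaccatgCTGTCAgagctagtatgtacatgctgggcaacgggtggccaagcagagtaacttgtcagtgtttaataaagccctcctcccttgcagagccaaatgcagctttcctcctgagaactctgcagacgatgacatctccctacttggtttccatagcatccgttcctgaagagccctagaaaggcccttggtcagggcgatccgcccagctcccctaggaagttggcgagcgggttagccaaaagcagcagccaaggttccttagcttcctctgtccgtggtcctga
The *Lhx9* window and this *Slc17a6* window held the letters once each and the *Pappa2* window did not. The *Pappa2* and *Lhx9* windows lie inside the annotated genes, whose 5′ ends are at 158980490 and 138848577. Sequence at those ends was not searched. A window at the other annotated *Slc17a6* start of that table, at chr7:51624387-51624686 (plus, not printed), held no match. Of the 19 leading genes with a sequence in the reference table, 3 (15.8%) held the motif in any of their sequences. Of all 32851 promoter sequences of that table, counted singly, 19.2% did. A gene with several sequences has more chances to hold it, so the shares are not like measures.

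The transmitter genes lay within the range of the PN clusters, *Slc17a7* apart, and *Neurod2* and *Meis1* lay outside it, as the plot of 4 genes by cluster shows. *Slc17a6*, which encodes the vesicular glutamate transporter VGLUT2, was at 247, 209, 253, 294 and 229 CPM in the saline embryos and at 377, 252, 215, 222, 224 and 296 CPM in the EtOH embryos. It ranked sixth of the 25 clusters, above the 7 Int clusters (21.3 to 116 CPM) and within the range of the 8 PN clusters (20.6 to 541 CPM). A *Slc17a6* UMI was found in 545 of 662 nuclei (82.3%), against 42.7% of PN, 22.5% of Int and 15.3% of RGC nuclei. The median UMIs per nucleus were 10268.5 in Cluster 19, 7630.5 in PN, 7445 in Int and 6477.5 in RGC nuclei. *Slc17a7*, the transporter gene that PN express as they mature, was lowest of all clusters (1.71 ± 2.30 CPM, SD, n = 11).

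**Figure D2:**
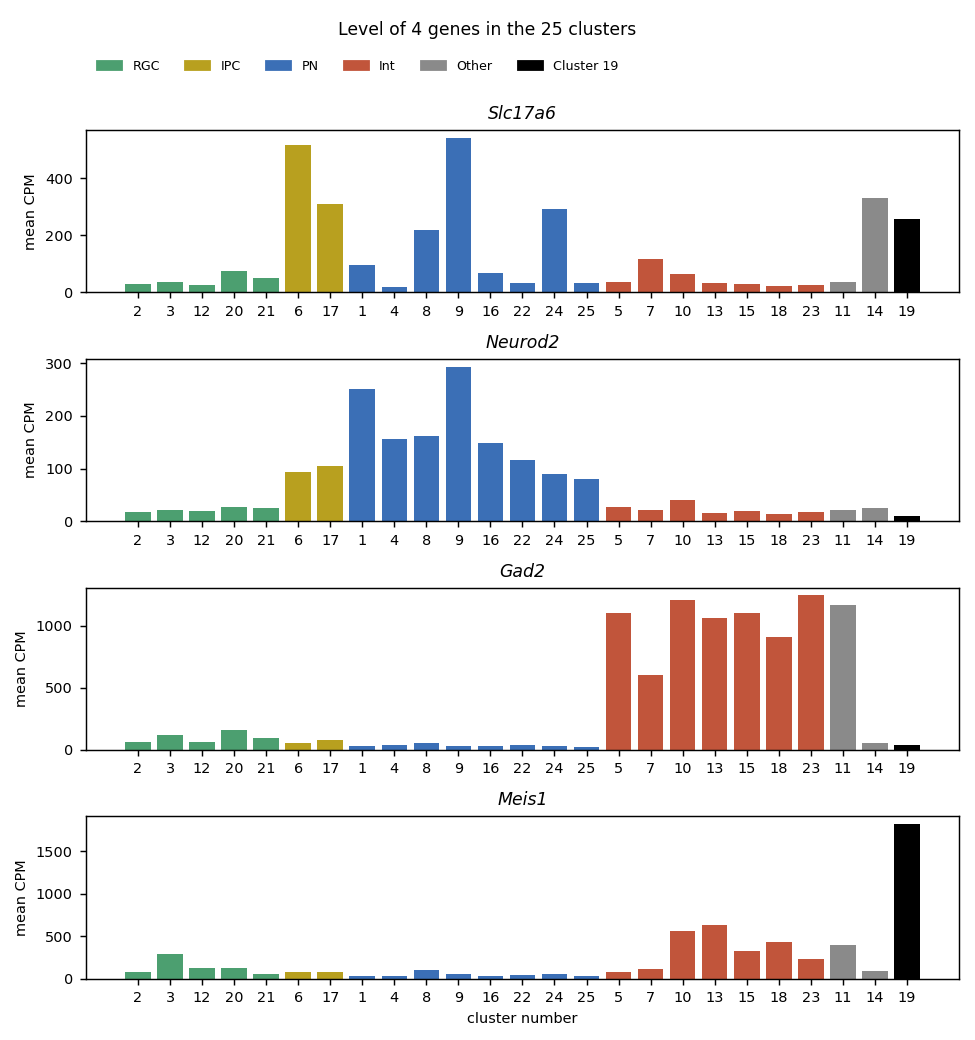
Mean CPM of *Slc17a6*, *Neurod2*, *Gad2* and *Meis1* in each of the 25 clusters, ordered by the authors' major cell types, with Cluster 19 in black. Cluster 19 has *Slc17a6* at 256 CPM beside the lowest *Neurod2* (9.27 CPM), *Gad2* at 42.1 CPM and the highest *Meis1* (1822 CPM).

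The GABA genes were low. *Gad1* was at 13.3 ± 8.88 CPM, *Gad2* at 42.1 ± 27.6 CPM and the vesicular GABA transporter gene *Slc32a1* at 1.08 ± 1.66 CPM (SD, n = 11 for each). *Gad2* lay within the range of the PN clusters (26.5 to 55.3 CPM) and far under the lowest Int cluster (608 CPM, Cluster 7). A *Gad2* UMI was found in 166 of 662 nuclei (25.1%), against 18.1% of PN nuclei, 25.5% of RGC nuclei and 89.7% of Int nuclei. Of the 182 nuclei with a *Gad1* or *Gad2* UMI, 112 had a single one and 25 had 4 or more, with 27 as the most. A *Gad1* or *Gad2* UMI was found in 27.9% of nuclei with a *Slc17a6* UMI and in 25.6% of those without. After thinning of the nuclei this order was reversed, at 6.67% with a *Slc17a6* UMI and 7.82% without. The 13 genes of other transmitters in the files gave 31.5 ± 11.3 CPM in sum (SD, n = 11), and 11 of them were under 5 CPM.

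Few genes of peptides were detected above a low level. *Cck*, which encodes cholecystokinin, was highest of the 25 clusters at 12.6 ± 6.52 CPM (SD, n = 11), with 1.64 CPM in the next cluster. *Nts*, which encodes neurotensin, ranked second at 34.8 ± 21.9 CPM (SD, n = 11) after PN Cluster 24 (54.5 CPM). UMIs of *Cck* were found in 66 nuclei and of *Nts* in 64. *Nxph1*, which encodes a secreted neurexin ligand, ranked second (1868 ± 411 CPM, SD, n = 11). Of the 22 genes of this list in the files, 15 were under 5 CPM.

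Factors of the pallium were low. Of 20 pallial PN factors in the files, 8 were lowest of all clusters in Cluster 19, among them *Neurod2*, *Neurod6*, *Sox5*, *Zbtb18* and the 3 nuclear factor I genes *Nfia*, *Nfib* and *Nfix*. The summed level of the 20 factors was 3752 ± 812 CPM (SD, n = 11), the lowest of the 25 clusters, where the median of the others was 10340 CPM. *Tbr1*, a T-box factor of deep layer neurons, was in the middle (rank 12), and *Lmo3* ranked 4 (358 ± 139 CPM, SD, n = 11). *Emx1*, a pallial homeodomain gene, ranked 24 (4.50 ± 4.53 CPM, SD, n = 11).

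The 10 genes lowest relative to the median of the other clusters included the same nuclear factor I genes. They were chosen among 3438 genes with a median of at least 50 CPM, of which 135 were lowest in Cluster 19. *Nfib* (0.124 times the median), *Nfix* (0.133) and *Nfia* (0.134) were among the first 4, and *Gm11266* (0.158) and *E130114P18Rik* (0.185) overlap *Nfib* and *Nfia* on the other strand. The others were *Cecr2*, *Zfp536*, *Boc*, *Sema5b* and *St18*, with ratios between 0.130 and 0.203. *Nfib* had a mean of 371 CPM in Cluster 19, 577 CPM in the next lowest cluster (Int Cluster 18) and a median of 2991 CPM over the other 24.

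Factors that name other regions and classes were also low or shared. All 5 DLX entries, *Dlx1*, *Dlx2*, *Dlx5*, *Dlx6* and *Dlx6os1*, ranked between 20 and 24, with *Dlx1* at 4.97 ± 3.49 CPM (SD, n = 11) against 252 CPM in Cluster 10. The septal genes *Zic1* to *Zic5* ranked between 21 and 23. *Rarb*, the marker of striatal neurons, ranked 4 at 77.9 ± 24.6 CPM (SD, n = 11), where Cluster 11 had 1910 CPM. *Reln*, a Cajal-Retzius gene that encodes a secreted matrix protein, also ranked 4 at 573 ± 265 CPM (SD, n = 11), where Cluster 14 had 10477 CPM, and *Trp73* was at 3.00 ± 5.75 CPM (SD, n = 11) against 542 CPM there. The thalamic markers *Tcf7l2* (24.2 ± 44.4 CPM) and *Ntng1* (223 ± 105 CPM, SD, n = 11 for both) ranked 16 and 5. Of 24 hypothalamic and amygdalar factors, 18 were under 5 CPM, and *Lhx9* and *Barhl2* were the 2 highest in Cluster 19. Of the authors' 99 markers of the cluster, a list chosen on these nuclei, 31 were highest in it and for 82 it was among the 3 highest clusters.

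Progenitor and non-neuronal genes were low. *Hes1*, the RGC marker, was lowest of all clusters (1.43 ± 1.71 CPM, SD, n = 11) and *Mki67*, a proliferation marker, likewise (14.4 ± 8.85 CPM, SD, n = 11). The 13 RGC genes summed to 102 ± 50.9 CPM (SD, n = 11), the lowest of 25 clusters. *Eomes*, the marker of IPCs, was at 7.98 ± 4.40 CPM (SD, n = 11) against 414 CPM in Cluster 6. The 17 genes of non-neuronal cells summed to 43.1 ± 37.6 CPM (SD, n = 11), with 13 of them under 5 CPM.

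Genes of synapses, channels and adhesion varied by list. Of the 18 genes of ionotropic glutamate receptors, *Grik4*, *Grin2a*, *Grin3a*, *Grin3b* and *Grid1* were highest in Cluster 19, with *Grin3a*, which encodes an NMDA receptor subunit, at 215 ± 44.3 CPM (SD, n = 11) against 146 CPM in PN Cluster 22. *Grik2*, by contrast, was lowest of all clusters (769 ± 259 CPM, SD, n = 11). Of the 8 metabotropic receptor genes, *Grm3* was highest (312 ± 103 CPM, SD, n = 11) and 3 more were among the top 3 clusters. *Slc12a5*, which encodes the chloride extruder KCC2 of maturing neurons, was highest in Cluster 19 at 83.4 ± 18.2 CPM (SD, n = 11), though Int Cluster 7 was close (73.1 CPM). *Gabra3*, a GABA receptor gene, was likewise highest in Cluster 19 at 175 ± 23.2 CPM (SD, n = 11), with 147 CPM in Int Cluster 7. The summed level of 22 postsynaptic scaffold genes (17099 ± 823 CPM) and of 21 contactin and IgLON genes (26962 ± 2350 CPM, SD, n = 11 for both) was the highest of the 25 clusters, that of 31 ion channel genes ranked 3, that of the 18 ionotropic glutamate receptor genes ranked 9 and that of 27 presynaptic release genes (16029 ± 808 CPM, SD, n = 11) ranked 13. *Lingo2*, a leucine-rich repeat gene, was highest in Cluster 19 (5684 CPM, against 3567 CPM in PN Cluster 25) and *Negr1* was the other IgLON gene highest in Cluster 19 beside *Opcml* (4390 CPM, against 3830 CPM in Int Cluster 23). Axon guidance genes went the other way in sum (18695 ± 1975 CPM, SD, n = 11, rank 21), with *Dcc* and *Epha4* second lowest of the clusters.

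Over 11621 genes, the mean profile of Cluster 19 was most alike that of 3 Int clusters, Cluster 7 (Pearson r = 0.969 of log2 CPM with 1 added), Cluster 15 (0.957) and Cluster 18 (0.951), and least alike that of RGC Cluster 21 (0.735). These r values run across genes of means from the same libraries and describe likeness only. Cluster 7 held 117 CPM of *Meis1*, 35.7 CPM of *Lhx9* and 7.99 CPM of *Pappa2*.

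The members were not uniform, and *Pappa2* divided them. After thinning to 2000 UMIs, 320 nuclei had a *Pappa2* UMI and 342 had none, and the levels of other genes were then taken from all UMIs of each set. With *Pappa2*, *Nts* was at 55.3 CPM against 6.17 CPM without (8.97 times), *Has2* at 90.1 against 15.9 CPM (5.67 times), *Alk* at 818 against 218 CPM (3.76 times), *Cpne8* at 543 against 146 CPM (3.72 times) and *Hdac9* at 2118 against 638 CPM (3.32 times). Each was higher in the *Pappa2* nuclei in 10 or 11 of 11 embryos. A second set was lower there, with *Necab2* at 7.53 against 34.9 CPM (0.216 times), *Col19a1* at 63.1 against 252 CPM (0.251 times), *Pitpnm3* at 21.7 against 56.7 CPM (0.383 times) and *Reln* at 402 against 695 CPM (0.579 times), in 10 or 11 of 11 embryos. *Dcx* (425 against 418 CPM), *Slc17a6* (265 against 234 CPM), *Lhx9* (127 against 155 CPM) and *Pbx3* (5552 against 4742 CPM) had ratios between 0.818 and 1.17. *Meis1* (2208 against 1565 CPM, 1.41 times) was higher in the *Pappa2* nuclei in 11 of 11 embryos. *Barhl2* (68.1 against 39.6 CPM, 1.72 times) was higher there in 8 of 11. The split used *Pappa2*, so its own ratio is no result, and no test was made.

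**Figure D3:**
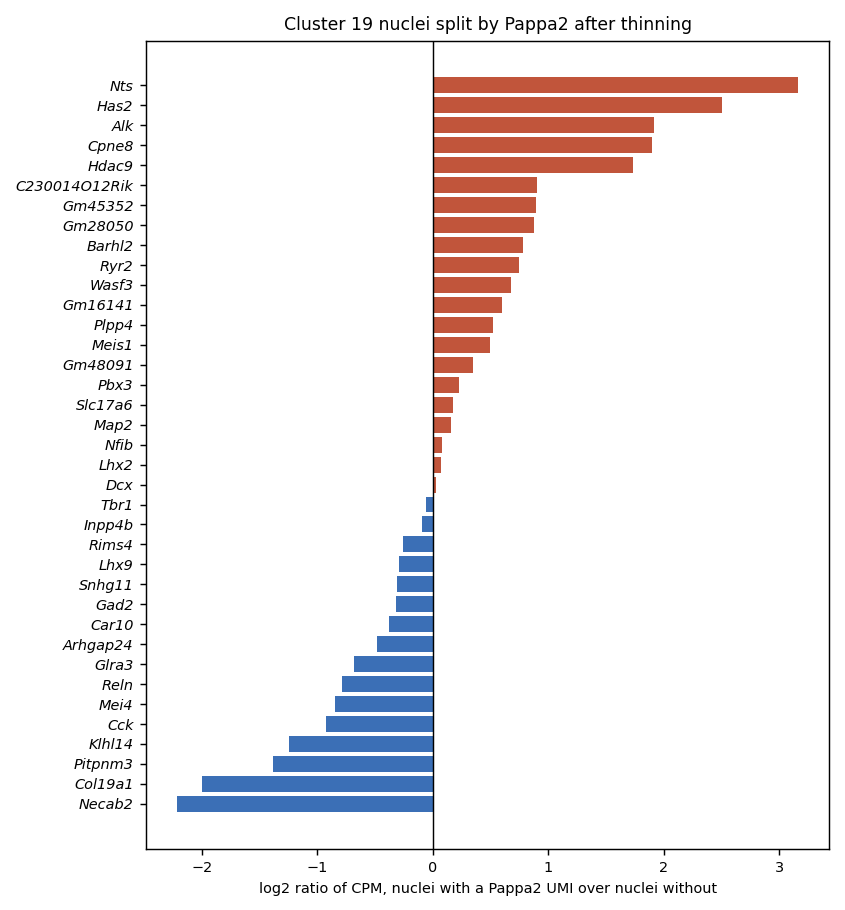
Log2 ratio of the pooled CPM of each gene in the 320 nuclei with a *Pappa2* UMI after thinning to that in the 342 nuclei without. *Nts*, *Has2*, *Alk*, *Cpne8* and *Hdac9* extend to the right and *Necab2*, *Col19a1*, *Pitpnm3* and *Klhl14* to the left, with *Dcx* at 0.

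Before the treatments are compared, a difference between libraries has to be given. In saline embryos S1-1, S1-2, S2-1 and S2-2, 98.7%, 98.4%, 95.9% and 97.4% of Cluster 19 nuclei had an *Nfia* UMI. In saline embryo S2-4 it was 56.0%, and in the EtOH embryos 46.7%, 33.3%, 46.8%, 46.6%, 27.9% and 52.8%. Over all embryos it was 96.9% of PN nuclei, 80.6% of Int nuclei and 99.7% of RGC nuclei. The first 4 embryos thus stood apart from S2-4 and from all EtOH embryos. After thinning to 2000 UMIs the same 4 had 37.1% to 60.5% and the other 7 embryos 9.30% to 26.7%. Without thinning, a *Gad2* UMI was found in 45.6%, 25.8%, 47.4% and 31.6% of Cluster 19 nuclei of those 4, in 7.14% in S2-4 and in 6.67% to 14.8% in the EtOH embryos, while *Gad2* levels overlapped, with 31.6 to 88.0 CPM in the 4 and 8.92 to 83.9 CPM in the other 7. In PN nuclei, *Erbb4*, a receptor gene that marks migrating Int, was at 329 to 559 CPM in the 4 embryos and at 94.0 to 265 CPM in the other 7. For gene expression, fits without those 4 embryos, in thinned nuclei and with the summed RGC and IPC genes as a covariate were made. That sum did not set the 4 apart, with 71.5 to 194 CPM beside 48.4 to 244 CPM in the other 7. Thinning left them apart in *Nfia*, so the covariate and thinned fits cannot tell whether this difference bears on their calls. Its part in the other results was not tested. The median UMIs per Cluster 19 nucleus averaged 11345 ± 1708 over saline embryos (SD, n = 5) and 8760 ± 1583 over those given EtOH (SD, n = 6; two-sided exact permutation test, p = 0.0368), and with labels exchanged only within batches the same test gave p = 0.0810. Of the 11 exact permutation tests that left out 1 embryo, 8 no longer passed (p between 0.0556 and 0.0810).

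**Figure D4:**
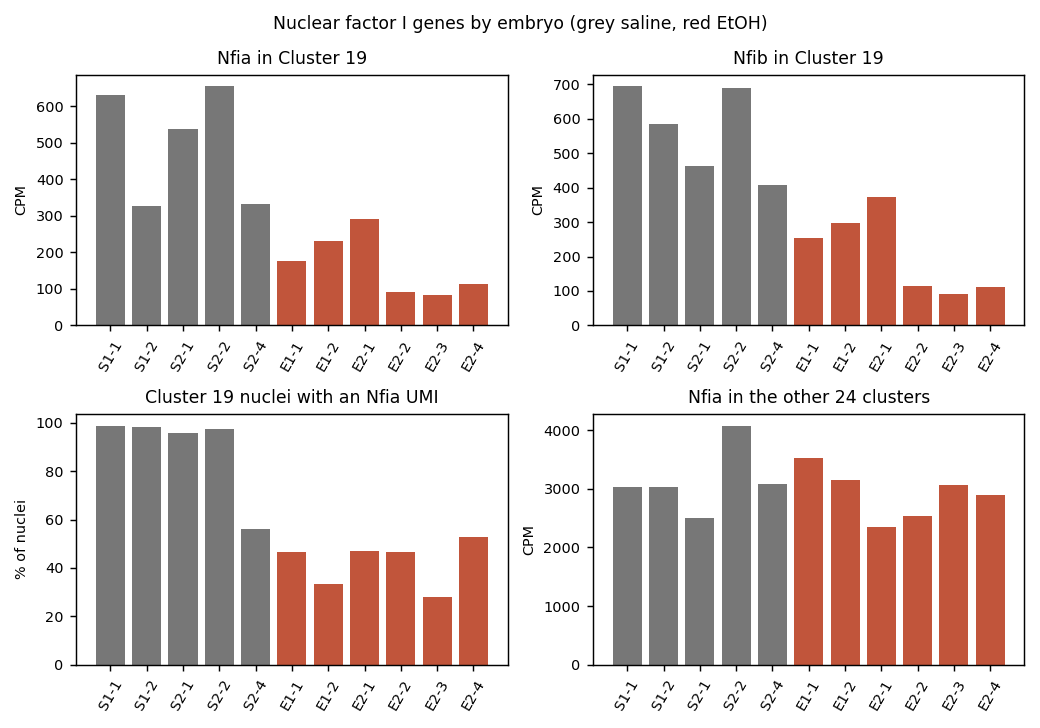
*Nfia* and *Nfib* in Cluster 19 by embryo (CPM, upper row), the percentage of Cluster 19 nuclei with an *Nfia* UMI (lower left) and *Nfia* in the nuclei of the other 24 clusters (CPM, lower right), saline in grey and EtOH in red. S1-1, S1-2, S2-1 and S2-2 have an *Nfia* UMI in 95.9% to 98.7% of nuclei and the other embryos in 27.9% to 56.0%, while *Nfia* in the other clusters overlaps between the treatments.

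The percentage of nuclei in Cluster 19 did not differ between treatments beyond the spread between embryos. It was 1.03%, 1.23%, 1.61%, 2.57% and 1.16% in the saline embryos and 0.518%, 1.15%, 1.24%, 1.18%, 1.83% and 0.929% in the EtOH embryos. The means were 1.52 ± 0.624% (SD, n = 5) and 1.14 ± 0.430% (SD, n = 6), a difference of -0.382 points (two-sided exact permutation p = 0.286). With labels exchanged only within batches, the exact permutation p was 0.229. Without S2-2 the difference was -0.120 points, and without the 4 saline embryos that stood apart it was -0.0241 points. Batch 1 had 1.13% in saline and 0.833% in EtOH embryos, and batch 2 had 1.78% and 1.29%.

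The transmitter genes of the cluster were compared on nuclei thinned to 2000 UMIs. A *Slc17a6* UMI was found in 34.5 ± 5.18% of nuclei for saline embryos and in 40.0 ± 11.3% for EtOH embryos (SD, n = 5 and 6), *Gad1* in 2.20 ± 2.17% and 1.35 ± 2.13%, and *Gad2* in 6.22 ± 3.16% and 5.53 ± 3.60%. None of the 3 differed beyond the spread (two-sided exact permutation test, p = 0.381, 0.524 and 0.732, adjusted p = 0.732 for each). Without E1-1, with its 15 nuclei, the difference for *Slc17a6* was 1.48 points in place of 5.48. Without thinning, *Gad2* was lower by 20.2 points after EtOH (two-sided exact permutation test, p = 0.0152), and the 4 saline libraries that stood apart had the highest values.

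Gene expression after EtOH was tested with edgeR's quasi-likelihood test on the counts summed per embryo. Of 6916 genes tested, 3 (0.0434%) passed both thresholds, a Benjamini-Hochberg p below 0.05 and a fold change over 1.25 or under 0.8. *Pnpla1* was higher (0.0145% of genes tested) and *Zbtb20* and *Gm11266* were lower (0.0289%). The 3 were chosen by their p in these embryos, so a lack of overlap between their groups is no separate result. How many of the 6916 genes had groups without overlap was not counted. An unadjusted p under 0.05 was found for 884 genes (12.8%). Of the 3, none was called in all fits that left out 1 embryo, and those fits called between 0 genes (without S1-1, S2-2, E1-1, E2-1, E2-2 or E2-3) and 281 genes (without S2-4).

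*Pnpla1*, which encodes a lipid acyltransferase of the patatin-like family (chromosome 17, 28858411 to 28890309), was at 10.9, 13.7, 12.2, 19.9 and 14.0 CPM in the saline embryos and at 44.3, 29.4, 46.4, 35.2, 28.6 and 40.8 CPM in the EtOH embryos. The groups did not overlap. The log2 fold change was 1.35 (SE 0.25, edgeR adjusted p = 0.0382). In the nuclei of the other 24 clusters, *Pnpla1* had a log2 fold change of 0.85 (SE 0.21, edgeR adjusted p = 0.0246), with saline embryos S2-2 (24.2 CPM) and S2-4 (26.7 CPM) within the EtOH range, which reached 44.8 CPM, and the difference between Cluster 19 and the others was 0.36 (SE 0.26, edgeR adjusted p = 0.876). An effect of Cluster 19 of its own was thus not shown for this gene. With counts summed per dam, the exposed unit, it had an edgeR adjusted p of 0.105.

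*Zbtb20*, which encodes a zinc finger repressor of cortical and hippocampal neurons (chromosome 16, 42875881 to 43642602), was at 660, 635, 729, 767 and 613 CPM in saline and at 410, 453, 466, 411, 298 and 510 CPM in EtOH embryos, again without overlap. The log2 fold change was -0.70 (SE 0.12, edgeR adjusted p = 0.0359). In the other clusters it was -0.22 (SE 0.12, edgeR adjusted p = 0.208), and the difference between the effects, -0.59 (SE 0.17), did not pass the adjustment (edgeR adjusted p = 0.463). With counts summed per dam, *Zbtb20* was no longer called (edgeR adjusted p = 0.0928).

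*Gm11266* is annotated within *Nfib* on the other strand (chromosome 4, 82508016 to 82547292), so its values carry the uncertainty given above for such pairs. It was at 39.6, 41.0, 27.7, 58.9 and 31.8 CPM in saline and at 0, 20.97, 16.9, 8.39, 11.9 and 5.10 CPM in EtOH embryos, with no overlap. The log2 fold change was -1.83 (SE 0.33, edgeR adjusted p = 0.0359), beside -1.54 for *Nfib*, and with counts summed per dam it was still called (edgeR adjusted p = 0.0357). It was the 1 gene of 6916 (0.0145%) whose treatment effect in Cluster 19 differed from that in the other 24 clusters, by -1.68 on the log2 scale (SE 0.28, edgeR adjusted p = 0.0238). No gene was called with Cluster 7 in place of the other 24 clusters, nor without S2-2 or without E2-2. In the other 24 clusters its means were 228 CPM in saline and 215 CPM in EtOH embryos. *Gm11266* is 1 of the 10 genes lowest in Cluster 19. Without the 4 saline embryos that stood apart, which leaves 1 saline embryo assumed to vary like the others, its log2 fold change was -1.46 (edgeR adjusted p = 1.00), and *Pnpla1* (1.40) and *Zbtb20* (-0.52) had the same adjusted p.

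**Figure D5:**
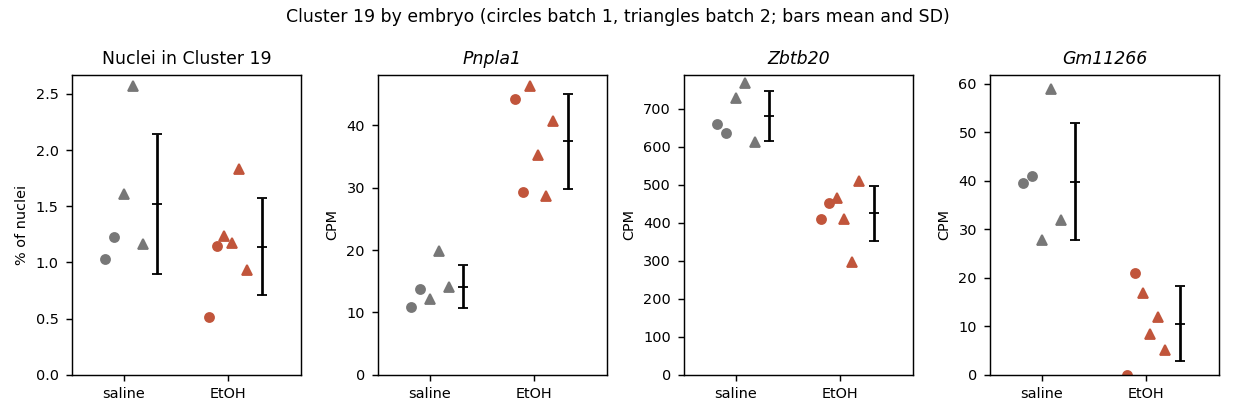
Percentage of nuclei in Cluster 19 and CPM of *Pnpla1*, *Zbtb20* and *Gm11266* in Cluster 19 for each embryo, with circles for batch 1, triangles for batch 2 and bars for the mean and SD. The percentages overlap between saline and EtOH, while the 3 genes do not, with *Pnpla1* at 10.9 to 19.9 CPM in saline and 28.6 to 46.4 CPM in EtOH embryos. The 3 genes were chosen by their p in these same embryos.

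The next 7 genes by p shared an adjusted p of 0.0503 in edgeR. *Qk*, which encodes an RNA-binding protein, had a log2 fold change of -0.74 (SE 0.15). In the other clusters *Qk* had -0.30 (SE 0.09, edgeR adjusted p = 0.0291). The difference between these effects was -0.53 (SE 0.16, edgeR adjusted p = 0.493). The other 6 were the noncoding genes *Gm26836*, *Gm26804*, *4930509J09Rik*, *Gm12064*, *9630028H03Rik* and *Gm26909*, with log2 fold changes between 0.77 and 1.61. In the other clusters their log2 fold changes lay between 0.67 and 1.26. An edgeR adjusted p under 0.05 was found there for 4 of the 6, all but *Gm12064* (0.0664) and *9630028H03Rik* (0.0522). The share of all genes under 0.05 there was not taken, so neither these calls nor that of *Pnpla1* can be set beside it. The test of the difference between Cluster 19 and the others gave an edgeR adjusted p between 0.961 and 1.00 for the 6. In the other clusters saline embryo S2-4 lay within the EtOH range for all 6, as for *Gm26836*, with 122 CPM beside 104 to 124 CPM. Without the 4 saline embryos that stood apart, the log2 fold changes in Cluster 19 were -0.33 for *Qk*, 0.19 for *Gm26804*, 0.24 for *9630028H03Rik*, 0.34 for *Gm26836*, 0.42 for *4930509J09Rik*, 0.58 for *Gm12064* and 1.10 for *Gm26909* (edgeR adjusted p = 1.00 for each).

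Without a filter on low counts, edgeR called 35 genes of the 30 lists, and 312 of 20092 genes in all. None of the genes of the lists was called in the edgeR fit above. Over all genes tested, 493 (7.13%) were higher and 391 (5.65%) lower at an unadjusted p under 0.05, and the counts of each list are to be read beside these shares. Of 14 tested pallial PN factors, 13 had a negative log2 fold change and 7 an unadjusted p under 0.05, with a median of -0.49 beside 0.00 over all genes tested. *Nfia* (-1.66, SE 0.37, edgeR adjusted p = 0.108), *Nfib* (-1.54, SE 0.38, edgeR adjusted p = 0.128) and *Sox5* (-0.91, SE 0.27, edgeR adjusted p = 0.182) were among them. DESeq2 called 9 genes of the lists, these 3 included, edgeR on counts summed per dam called these 3 (edgeR adjusted p = 0.00437, 0.0357 and 0.0477), and edgeR in thinned nuclei (edgeR adjusted p = 0.00121 for both) and limma's voom, with dams as random blocks (limma adjusted p = 0.0153 for both) called *Nfia* and *Nfib*. Of all genes fitted, DESeq2 called 49 of 20092, counts summed per dam 12 of 10657, thinned nuclei 5 of 2326 and voom 82 of 6916. How many list genes each of these fits held was not counted. Without robust empirical Bayes, edgeR called *Nfia* and *Nfib* (edgeR adjusted p = 0.0305 and 0.0373). With the summed RGC and IPC genes as a covariate it called *Nfia* (-1.35, edgeR adjusted p = 0.00444). That sum did not set the 4 saline libraries apart. None of *Nfia*, *Nfib* and *Sox5* was called with batch as a term (edgeR adjusted p = 0.138, 0.161 and 0.240), with the embryo number within batch as a block (0.209, 0.228 and 0.182), in embryos with at least 30 nuclei (0.191, 0.205 and 0.323) or without a filter on low counts (0.0668, 0.0950 and 0.101). Without the 4 saline embryos that stood apart, the 3 had log2 fold changes between -1.03 and -1.07 (edgeR adjusted p = 1.00). *Nfia* was at 632, 328, 539, 655 and 334 CPM in saline and at 177, 231, 291, 90.6, 83.4 and 115 CPM in EtOH embryos. The groups did not overlap, though the number of all tested genes for which this holds was not counted. By this level S1-2 lay with S2-4, and it was the percentage of nuclei with an *Nfia* UMI that set the 4 saline libraries apart. The 6 tested subpallial GABA factors were all lower (median -0.47), with 3 at an unadjusted p under 0.05. Of the 30 tested ion channel genes 4 were higher and 2 lower at that level, of the 27 axon guidance genes 6 were lower, and of the 18 Wnt pathway genes 1 was higher and 2 lower. Of 16 ionotropic glutamate receptor genes, 1 was higher (*Grin3a*, log2 fold change 0.42, SE 0.13, edgeR adjusted p = 0.163) and 3 lower. The 25 leading genes had 5 higher and 0 lower at an unadjusted p under 0.05, with a median of 0.11. The identity genes *Pappa2* (-0.14, SE 0.24), *Meis1* (-0.09, SE 0.12), *Slc17a6* (0.01, SE 0.13) and *Lhx9* (-0.26, SE 0.16) did not pass, nor did *Dcx* (0.04, SE 0.10). *Snhg11* (0.54, SE 0.18, edgeR adjusted p = 0.200), *Map2* (-0.28, SE 0.10, edgeR adjusted p = 0.210) and *Lhx2* (-0.46, SE 0.13, edgeR adjusted p = 0.108) had an unadjusted p under 0.05 and did not pass either. Without a filter on low counts, edgeR called *Snhg11*, *Map2* and *Lhx2*.

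The direction of the fold changes varied with where a gene was abundant. Of 56 genes over 4 times higher in the other clusters than in Cluster 19, 96.4% had a negative log2 fold change after EtOH (median -0.74), and of 244 genes 2 to 4 times higher there, 82.8% did (median -0.29). Of 474 genes over 2 times higher in Cluster 19, 21.5% did (median 0.19). The grouping took means over embryos of both treatments, so a fall in Cluster 19 after EtOH itself moved a gene toward the others. The order is thus not independent of the changes it describes. Whether the saline libraries that stood apart account for this order was not tested. The 19 RGC and IPC genes in sum overlapped between the treatments, with 71.5 to 194 CPM in saline and 48.4 to 244 CPM in EtOH embryos.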

How the data were processed

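Nuclei were isolated from the cortex of single embryos, and libraries were made with the 10x 3′ kit, version 3.1. Per the labels and the methods, Cell Ranger was run against mm10, and Seurat was used to filter and cluster nuclei. They deposited raw UMI counts, as 1 table of 23513 genes for each of 11 embryos and 25 clusters (275 tables). The deposited counts are whole numbers and are not normalized. A further saline embryo, S2-3, had no table among the 275 and was not used here. The paper removed 1 saline sample because its cells were spread over the clusters unlike those of the other samples. The percentage of nuclei in Cluster 19 is part of such a spread. Cluster numbers and names are the authors' own. Doublets were not called here, and 5 Cluster 19 nuclei, all in saline embryos, had over 3 times their embryo's median UMIs. Genes were matched to GENCODE M21 on GRCm38 (59 of 59 named genes).

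Counts were summed per embryo over Cluster 19 nuclei, and levels are CPM of those sums with the SD between embryos, using at least 10 nuclei per embryo and cluster. Chi-square statistics per gene between embryos of 1 group lay between 2.21 and 4.87, so no library was counted as a copy. Gene expression was tested with edgeR 4.0.16 (TMM, filterByExpr, robust glmQLFit, treatment as the term), and SEs were derived from the fold change and its F. The effect of treatment in Cluster 19 was set against that in the other 24 clusters by an interaction with a term for each embryo. DESeq2 1.42.0 and limma 3.58.1 (voom, dam as a random block) were alternatives, and the scripts were tested on simulated data. Percentages were compared by two-sided exact permutation tests over 462 splits, or 210 within batches, with Benjamini-Hochberg adjustment over the 3 transmitter genes. Thinned nuclei were drawn to 2000 UMIs, and no nucleus had fewer. R 4.3.3, Python 3.11.15 and matplotlib 3.10.9 were used.

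Named genes were the 25 highest in ratio to the next cluster (at least 20 CPM), the 10 lowest in ratio to the median cluster (at least 50 CPM), the genes of 30 lists, up to 15 called genes per direction with the 10 smallest p-values, and up to 10 interaction genes. *Erbb4* was chosen after its values were seen. The members and lists were chosen with earlier results of these data known, and 1 list is the authors' markers of this cluster, chosen on these nuclei. Embryo numbers within a batch did not pair embryos, since the correlations of their deviations lay between -0.03 and 0.04. Results for some genes of the lists are not reported here.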

Additional observations from a re-analysis of the deposited data

Results flagged for a closer look

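*Gm11266* had a treatment effect in Cluster 19 that differed from its effect in the other 24 clusters by an interaction test, with a difference of -1.68 on the log2 scale (SE 0.28, edgeR adjusted p = 0.0238). No gene was called by this test against Cluster 7, nor without S2-2 or without E2-2. Over 52 groups of embryos, 3 held a value set apart from the rest of its group by Dixon's test, and chance gives about 1 in 20. In saline embryo S2-4, 56.0% of Cluster 19 nuclei had an *Nfia* UMI, where the other 4 saline embryos had 95.9% to 98.7%. In the same embryo *9630028H03Rik* was at 61.2 CPM, where the others had 29.3 to 33.7 CPM. In EtOH embryo E1-1, with 15 nuclei, *Has2* was at 199 CPM, where the other 5 EtOH embryos had 20.4 to 71.3 CPM.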

How the results depend on the processing

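Against 3 genes called after EtOH, DESeq2 called 49 (21 higher, 28 lower), no filter on low counts 312 (121 and 191), batch as a term 7, counts summed per dam 12 (1 of the 3 among them), voom with dam as random block 82 (63 and 19), nuclei thinned to 2000 UMIs 5 (1 of the 3), embryos with at least 30 nuclei 4 (1 of the 3) and no robust empirical Bayes 7. With the summed RGC and IPC genes as a covariate 8 were called (2 of the 3), and without S1-1, S1-2, S2-1 and S2-2 1 was (0 of the 3), both chosen after seeing the data. Leaving out 1 embryo gave 0 to 281. With the embryo number as a replicate block, 2 genes were called, 0 of the 3 among them (edgeR adjusted p = 0.0529 to 0.0557 for the 3), and the percentage of nuclei differed by -0.520 points (exact permutation p = 0.0625, the smallest 5 pairs allow). Without 1 embryo it lay between -0.520 and -0.120. The interaction called 0 genes against Cluster 7, 2 in thinned nuclei and 0 to 6 without 1 embryo. The median UMIs differed by -2584 within batches, no longer past the threshold, and by -3165 to -2024 without 1 embryo. Without thinning, *Slc17a6* was reversed at -3.14 points, while *Gad1* (-4.67) and *Gad2* (-20.2) passed the threshold. Without 1 embryo *Gad2* lay between -1.44 and 0.416 points, reversed at 0.334 without S2-1 and at 0.416 without E1-1. The causes were not tested. For the 10 genes with the smallest p, all 218 log2 fold changes under alternatives kept their direction. Their choice by p in the same embryos favoured this, so it is no separate support. All 25 leading genes stayed highest in Cluster 19 under the alternatives tried, which used nuclei that these genes had been chosen on. With 15 nuclei in E1-1 and 2 dams per treatment, small changes may have been missed, and the smallest detectable change was not estimated.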
